A study of Homo sapiens with 16 samples.

Results

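Messenger RNA was followed for 38 genes of homologous recombination, the Fanconi anaemia pathway and the DNA damage checkpoint, out of 31495 genes to which the transcript counts could be summed. The genes were taken by name from a list of known repair and checkpoint genes. No measured value entered that rule, although the list was drawn up with earlier results of these data known. All 38 were found and all 38 passed the filter on low counts that left 19836 genes for testing. By role they comprised 5 genes of the BRCA complexes and mediators (BRCA1, BARD1, BRCA2, PALB2, RAD52), 5 recombinase paralogs (RAD51B, RAD51C, RAD51D, XRCC2, XRCC3) and 3 motor proteins and cofactors (RAD54L, RAD54B, RAD51AP1). The Fanconi genes were 9 of the core complex and its E2 enzyme (FANCA, FANCB, FANCC, FANCE, FANCF, FANCG, FANCL, FANCM, UBE2T), and 3 encoding the monoubiquitinated pair and a helicase (FANCD2, FANCI, BRIP1). A further 5 genes act in sensing and resection of broken ends (MRE11, RAD50, NBN, RBBP8, EXO1) and 8 in checkpoint signalling (ATM, ATR, ATRIP, CHEK1, CHEK2, TOPBP1, MDC1, TP53BP1).

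The cells were HCT116, an established human colon cancer line, either wild type or with the long noncoding RNA NORAD knocked down by CRISPR interference, in which a dead Cas9, usually fused to a repressor, blocks transcription. Knockdown was induced with 0.5 µg/ml doxycycline for 24 h, 48 h or 96 h, and each time had its own wild-type group. Polyadenylated RNA was read from strand-specific libraries, 2 wild-type and 2 knockdown at 24 h, and 3 and 3 at both 48 h and 96 h, 16 in all. The labels give neither the guide, nor whether the knockdown cells are 1 clone, and they do not name replicates as separate cultures. The same note on doxycycline is attached to wild-type and knockdown samples alike, but it speaks of inducing the knockdown, so it does not settle whether wild-type cells received the drug. The p-values below therefore speak of library-to-library spread, which may be technical.

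Homologous recombination repairs double-strand breaks from an intact sister copy: broken ends are resected to single strands, mediators load the recombinase on them, and motor proteins help strand exchange. The Fanconi pathway removes crosslinks between DNA strands, its core complex attaching ubiquitin to FANCD2 and FANCI, which then bring in nucleases and recombination. ATM and ATR are the kinases that signal breaks and stalled forks, with CHEK2 and CHEK1 as their main effector kinases. Many of these genes are transcribed mainly in S and G2 phase, when a sister copy is present, so their messenger RNA is known to follow the share of cycling cells.

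Library totals lay between 28391784 and 51853876 estimated counts. NORAD was at 155 to 162 CPM (counts scaled to a library of 1000000) in wild type against 18.1 to 24.8 in knockdown at 48 h, and at 181 to 184 against 66.2 to 79.9 at 96 h. At 24 h it was at 179 and 201 CPM in wild type and 230 and 188 in the libraries labelled knockdown, which did not have less NORAD (log2 fold change 0.14), so every 24 h direction below is that of the labels. Epithelial markers (EPCAM, KRT8, KRT18, KRT19 and 5 others) summed to between 2646 and 6498 TPM (counts per transcript length, scaled to 1000000 a library), while VIL1, CDX1 and LGALS4 stayed under 1 TPM. At 48 h the epithelial sum was 4060 to 4385 TPM in wild type and 2646 to 3302 in knockdown, where 5 of the 8 markers tested fell and none rose. The 5 fibroblast markers summed to 24.6 to 34.8 TPM in wild type against 40.9 to 44.6 in knockdown at 24 h, 8.15 to 11.04 against 20.5 to 25.4 at 48 h, and 14.3 to 17.4 against 16.6 to 20.04 at 96 h. COL1A1 reached 43.4 TPM and none of the other fibroblast markers exceeded 1.05. The 5 leucocyte markers summed to at most 1.38 TPM. The part of these shifts in the results was not tested. Knockdown 48 h replicate 3 stood apart from its group: 7.74% of its counts for the 38 genes came from retained-intron transcripts, against 11.1% and 10.6% in the other 2 libraries and 6.71% to 7.72% in wild type at 48 h. At 24 h that share was 6.67% and 6.19% in wild type and 7.43% and 8.79% in knockdown, and at 96 h it was 6.79% to 7.42% and 6.57% to 7.79%. The part of retained-intron counts in the results below was tested only by a fit on protein-coding transcripts. The mitochondrial share of all counts was higher in every knockdown library than in every wild-type library at 24 h (6.08% and 6.10% against 4.89% and 5.05%) and at 48 h (12.3% to 13.8% against 10.4% to 11.1%). At 96 h the groups overlapped (14.8% to 17.4% in knockdown, 15.5% to 16.6% in wild type), and the part of this share in the differences was not tested.

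Sequence around candidate cell-cycle elements is shown first, because the level of many of the genes moved with time. The RefSeq promoter table (GRCh38.p14; 250 bases before to 50 after each start site) held 35 of the 38 genes, in 48 windows; FANCI, RAD54B and NBN had no entry. An E2F element, searched as TTTCCCGC, TTTGGCGC, TTTCGCGC or TTTGCCGC on both strands, was found in the promoters of 6 of 35 genes, and in 12.5% of their windows against 3.3% of all windows and 4.4% of the windows of genes tested. A stretch of 30 bases from each of these genes (from FANCC the one nearer its start site) is given below, 5′ to 3′ on the gene's strand, with the match or its reverse complement in capitals.
EXO1 (chr1:241848197-241848226, plus strand): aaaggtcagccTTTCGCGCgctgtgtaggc
FANCA (chr16:89816801-89816830, minus strand): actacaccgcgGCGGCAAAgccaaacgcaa
FANCC (chr9:95317737-95317766, minus strand): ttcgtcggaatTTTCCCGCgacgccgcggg
FANCD2 (chr3:10026424-10026453, plus strand): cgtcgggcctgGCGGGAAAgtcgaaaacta
TOPBP1 (chr3:133661930-133661959, minus strand): ccgcgcggttgGCGCGAAAgtcggttcccg
XRCC2 (chr7:152676102-152676131, minus strand): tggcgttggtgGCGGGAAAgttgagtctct
The matches of EXO1, FANCD2, TOPBP1 and XRCC2 lay within 30 bases of the start site, that of FANCA at -172 to -165. FANCC held a second match at the same -172 to -165.

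The CHR element, searched as TTTGAA or TTCGAA on both strands, lay in the promoters of 5 genes (ATM, BRIP1, FANCC, MDC1, UBE2T), or 10.4% of the windows against 16.4% of all windows and 12.3% of the windows of genes tested. The 3′ UTR searched was that of the coding transcript with the most counts per length. For some genes this was a short transcript and not the one with most counts, as for RAD50 (RAD50-206) and RAD51C (RAD51C-203). The Pumilio motif TGTANATA is bound by the proteins that NORAD is known to sequester. It was found in 9 of 37 genes (24.3%), against 23.6% of 14356 tested genes with such a UTR. It was thus about as frequent among these genes as elsewhere. Sites of the 2 genes with the highest wild-type TPM, summed over their transcripts, are printed with 8 bases on either side (GENCODE 29, GRCh38).
UBE2T (chr1:202331700-202331723, minus strand): atttatctTGTACATAtgtatttt
FANCA (chr16:89738551-89738574, minus strand): agctcccgTGTAAATAatttatta
These matches are descriptions of the letters and show no binding.

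Levels per transcript length in wild-type cells ranged widely between the genes. UBE2T, the E2 enzyme that delivers ubiquitin to FANCD2, had the highest mean over the 3 times, with 79.0 ± 6.22 TPM at 24 h (SD, n = 2), 119 ± 3.21 at 48 h (SD, n = 3) and 64.7 ± 8.98 at 96 h (SD, n = 3). FANCA, a scaffold of the core complex, was second with group means of 80.9, 98.5 and 57.7 TPM, above UBE2T at 24 h by less than the SD. These TPM sum all transcripts of a gene, and a count on a short transcript weighs more. The coding FANCA-202 of 5451 bases held 59.6%, 58.9% and 54.6% of FANCA counts in these groups. The retained-intron FANCA-201 of 1430 bases held 6.71%, 9.22% and 9.8%, so the rank is not that of the coding transcript alone. RAD51C (34.2 to 50.7 TPM), RBBP8 (20.4 to 42.0 TPM) and FANCG (23.0 to 38.9 TPM) came next. FANCB was lowest with 1.21, 1.18 and 0.71 TPM at the 3 times, below FANCF (1.67 to 2.09 TPM) and BRCA2 (1.89 to 3.09 TPM). The obligate partners FANCD2 and FANCI were at 15.3 to 25.8 and 23.5 to 38.5 TPM. The kinases CHEK1 (14.9 to 20.9 TPM) and CHEK2 (16.3 to 22.3 TPM) stood above ATM (3.95 to 5.80 TPM) and ATR (3.39 to 4.25 TPM).

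**Figure D1:**
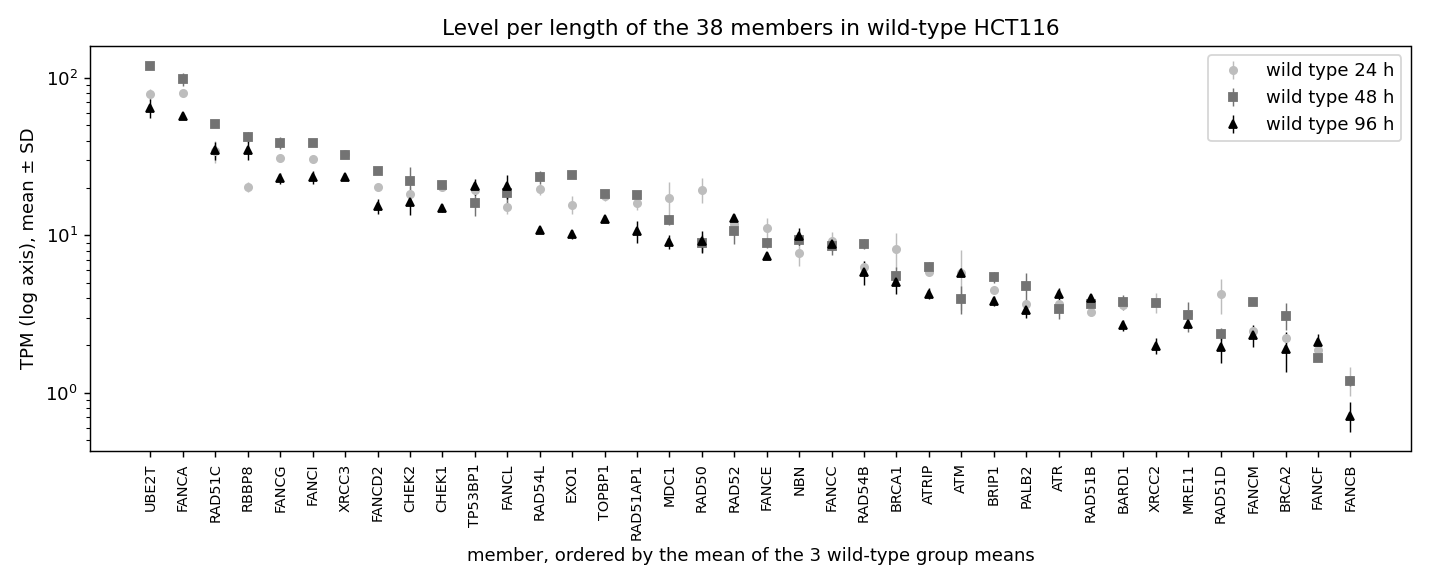
Level per transcript length (TPM, log axis) of the 38 genes in wild-type HCT116 at 24 h (n = 2), 48 h (n = 3) and 96 h (n = 3); points are group means and bars SD. UBE2T and FANCA are at the top and FANCB at the bottom. For UBE2T, RAD51C, FANCI and EXO1 the 48 h point is the highest of the column.

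In wild-type cells most of the genes rose from 24 h to 48 h and fell again by 96 h. From 24 h to 48 h, 26 of 38 rose and none fell (background: 22.5% of all tested genes rose and 22.1% fell), with a median log2 change of 0.56 against 0.00 for all genes. From 48 h to 96 h, 28 fell and 3 rose (background 22.7% and 23.7%), with a median of -0.59. The first count leaves 12 genes that did not pass and the second 7, by edgeR's quasi-likelihood test with Benjamini-Hochberg adjustment over 19836 genes. No gene fell from 24 h to 48 h at an unadjusted p under 0.05 either, nor by DESeq2. Rise and then fall was seen in 23 of the 38, against 13.9% of all genes. Both changes use the same 48 h wild-type libraries, so they are not independent of each other.

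RBBP8, which starts end resection with the MRE11 complex, had the steepest rise. It went from 37.8 and 40.9 CPM at 24 h to 91.5, 86.3 and 94.4 at 48 h, and remained at 76.6, 84.8 and 80.4 at 96 h. The 24 h and 48 h libraries did not overlap, and the change was 1.21 ± 0.09 (log2, SE; adjusted p = 5.32e-10). Its later change of -0.17 did not pass (adjusted p = 0.0626). EXO1, the nuclease of long-range resection, rose by 0.66 (adjusted p = 7e-06) and then fell by 1.16 on the log2 scale (adjusted p = 4.11e-10). UBE2T (0.96, then -1.04), RAD51C (0.89, then -0.92) and RAD54L (0.57, then -1.15) passed both times. The 3 that rose from 48 h to 96 h were all signalling genes, while the other 5 of the 8 signalling genes fell. ATM changed by 0.36 (adjusted p = 0.00554), ATR by 0.55 (adjusted p = 0.00386) and TP53BP1, which guards broken ends from resection, by 0.32 (adjusted p = 0.000571). On the opposite strand, TUBGCP4 covers 28.7% of the exonic bases of TP53BP1, and the strand setting of the counting is not given. NBN and FANCL rose by 48 h (0.64 and 0.71) and their later changes of -0.16 and -0.05 did not pass.

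With TMM-scaled library sizes, knockdown libraries held less messenger RNA of these genes in sum at each time, but at 24 h and 48 h this depended on the scaling. The summed level was 998 and 1059 CPM in wild type at 24 h and 810 and 864 in knockdown, or 81.4% of the wild-type mean. At 48 h it was 1548, 1522 and 1560 CPM against 1359, 1329 and 1432 (89%), and at 96 h 987, 1054 and 999 against 832, 783 and 758 (78%). On that scale the groups did not overlap at any of the 3 times. Scaled to total counts, the 24 h sums were 964 and 1047 CPM in wild type against 897 and 998 in knockdown (94.2%), and the 48 h sums 1434, 1429 and 1460 against 1486, 1347 and 1405 (98%). The groups then overlapped at both times, while at 96 h they stayed apart (971, 1038 and 991 against 826, 766 and 749, again 78%). Fewer cells that express a gene and less RNA per cell cannot be told apart in such bulk libraries.

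By gene, 14 of 38 fell and none rose at 24 h (background: 12.4% of all tested genes fell and 5.14% rose). At 48 h 12 fell and 1 rose (background 18.5% and 14.8%), and at 96 h 19 fell and none rose (background 5.15% and 5.35%). DESeq2 also found none that rose at 24 h or 96 h, and at an unadjusted p under 0.05 edgeR gave 1 at 24 h (ATM) and 0 at 96 h. Other settings did give genes that rose at 24 h, 2 with total-count and 2 with upper-quartile scaling. Abundance-dependent scaling, protein-coding transcripts only, and only the 2 groups compared gave 1 each. The median log2 fold change of the 38 was -0.31, -0.19 and -0.38, beside -0.02, 0.06 and -0.01 for all genes. Counted by overlap, every knockdown library lay below every wild-type library of its time for 26 of 38 genes at 24 h, 17 at 48 h and 23 at 96 h (background 32.9%, 20.3% and 15.6%). The reverse held for 3, 0 and 0 genes (background 26.8%, 16.9% and 16.2%). Of the 38, 25 fell at 1 or more times, and 29 had a negative fold change at all 3 times, as had 24.2% of all genes. Without knockdown 48 h replicate 3, 16 fell and 1 rose at 48 h, FANCC, FANCG, FANCI and UBE2T being the added ones.

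The 24 h and 48 h counts depended on how libraries were scaled, while at 96 h every scaling tried gave 19 or 20 genes that fell and none that rose. With scaling to total counts, which moves the median of all genes by 0.21 at 24 h and 0.14 at 48 h, 3 of the 38 fell (EXO1, RAD54L and RBBP8) and 2 rose (TP53BP1 and ATM) at 24 h, where 4.08% of all genes fell and 12.5% rose. At 48 h 7 fell (PALB2, RAD51B, RAD54L, RBBP8, EXO1, CHEK1 and ATRIP) and 3 rose (TP53BP1, ATM and FANCA), against 10.8% and 23.9% of all genes. At 96 h 19 fell and none rose, against 5.54% and 5.58%. Counted by overlap on that scale, knockdown lay below wild type for 14, 10 and 24 genes at the 3 times (background 15.3%, 13.4% and 15.5%) and above it for 4, 5 and 0 (background 46.9%, 24.8% and 16.6%). The share of higher genes among all calls was 29.2% at 24 h as reported and 75.4% under that scaling, and at 48 h 44.4% and 68.9%. The median of the 38 was negative at each time under every scaling. The 14 calls at 24 h went to 5 without either knockdown library of that time, to 6 without wild-type 24 h replicate 2 and to 9 without wild-type 48 h replicate 2. At 48 h the 13 calls went to 8 without wild-type 48 h replicate 1 and to 8 with protein-coding transcripts only.

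Whichever library was left out, EXO1, RAD54L and CHEK1 kept their 24 h call. At 48 h 8 genes did so, PALB2, RAD51B, RAD51C, RAD54L, RBBP8, EXO1, CHEK1 and ATRIP. At 96 h 14 of 19 did so, the exceptions being RAD51AP1, RAD51B, FANCM, XRCC2 and RAD54B, each lost when at least 1 library of that time (wild-type replicate 2 or 3, knockdown replicate 2 or 3) was left out. With protein-coding transcripts only, the 96 h calls of RAD51AP1, RAD51B, FANCM and XRCC2 were lost as well.

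**Figure D2:**
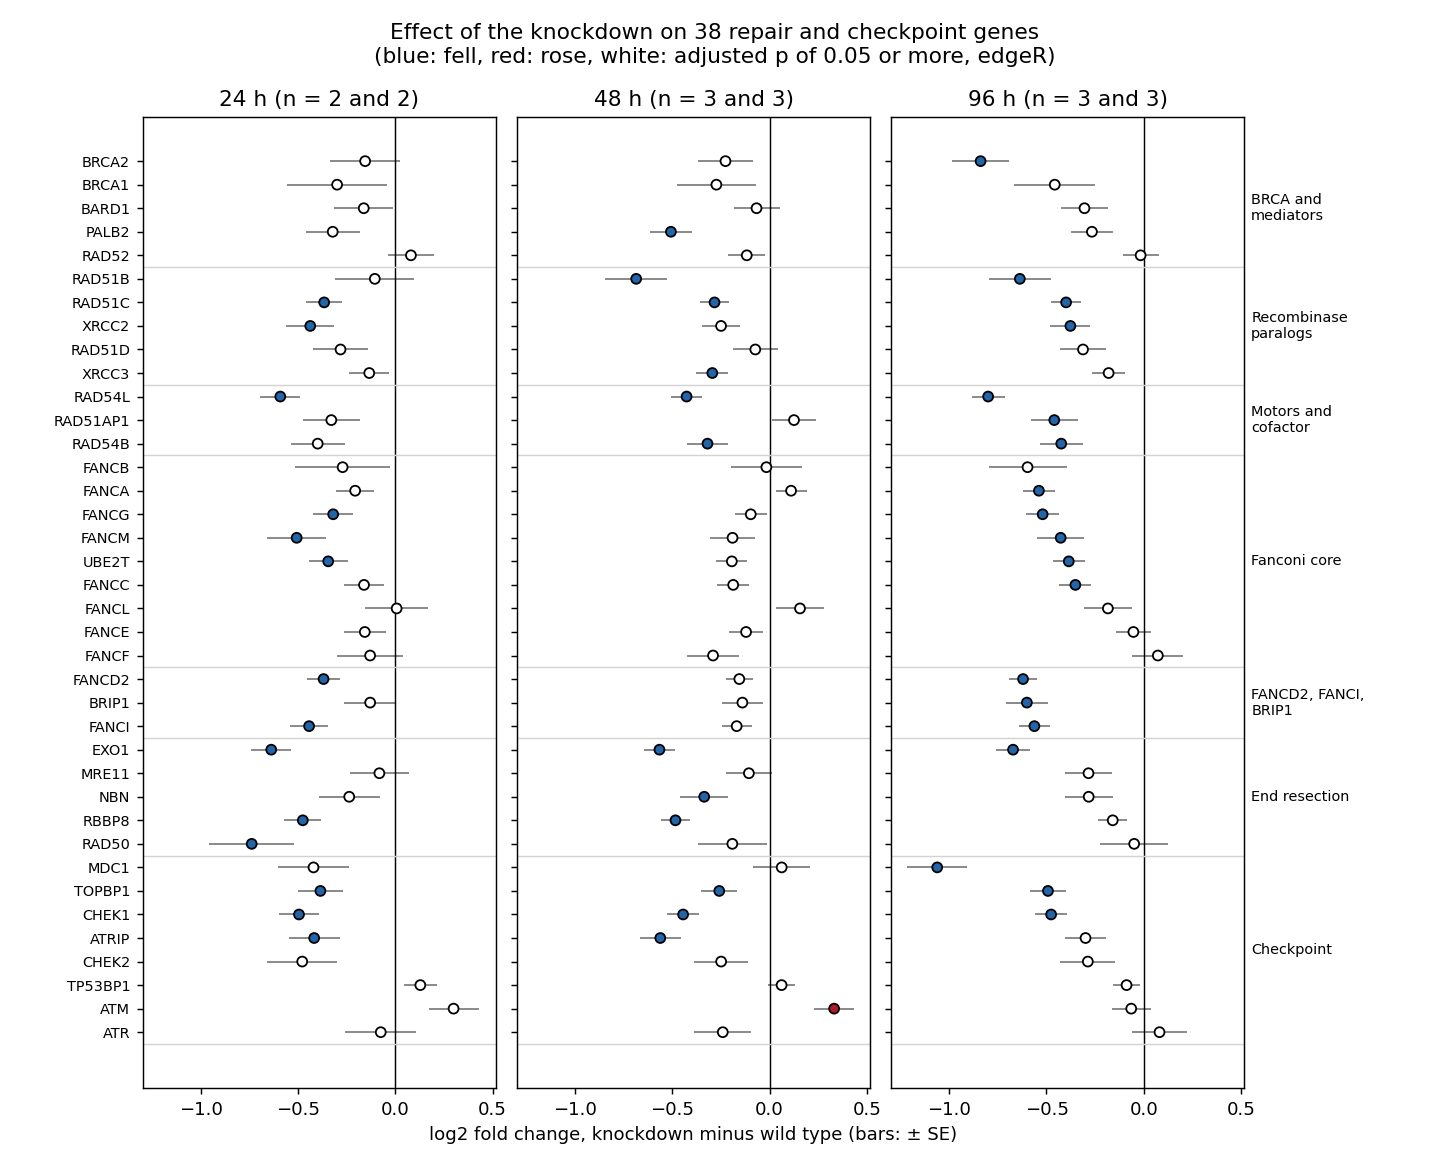
Log2 fold change, knockdown minus wild type, of the 38 genes at 24 h (n = 2 and 2), 48 h and 96 h (n = 3 and 3), grouped by role and ordered by the 96 h value; bars are SE, and filled points passed (blue fell, red rose). The column at 96 h is shifted furthest to the left, with 19 filled points, and ATM at 48 h is the only red one.

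At all 3 times 5 genes fell, namely EXO1, RAD54L, CHEK1, RAD51C and TOPBP1, as did 2.77% of all genes. EXO1 (ENSG00000174371, chromosome 1, 241847967 to 241895148, plus strand of GRCh38), the long-range resection nuclease, was at 27.5 and 26.3 CPM in wild type and 17.3 and 17.2 in knockdown at 24 h. At 48 h it was at 41.3, 41.6 and 44.7 against 25.6, 30.03 and 30.5, and at 96 h at 17.8, 19.2 and 19.97 against 12.5, 12.1 and 11.1. Each knockdown library lay below each wild-type library of its time. The log2 fold changes were -0.64 ± 0.10, -0.57 ± 0.08 and -0.67 ± 0.09 (SE), with adjusted p = 0.000243, 2.27e-05 and 1.81e-05, and all 3 calls held under each of the 24 settings tried.

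RAD54L, a motor protein that remodels recombinase filaments, was at 32.5 and 31.0 CPM against 19.4 and 22.7 in knockdown at 24 h. Wild type was at 44.2, 50.8 and 46.1 at 48 h, with knockdown at 35.5, 34.1 and 35.4, and 96 h gave 21.2, 20.3 and 22.3 against 11.3, 13.04 and 12.3. The groups were apart at each time. Its changes were -0.59 ± 0.10 (adjusted p = 0.000398), -0.43 ± 0.08 (adjusted p = 0.000365) and -0.80 ± 0.08 (adjusted p = 2.54e-06), and these too held under every setting. On the opposite strand, LRRC41 covers 25.1% of its exonic bases, and the strand setting of the counting is not given in the sources used here.

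CHEK1, the effector kinase of ATR, was at 29.3 and 29.9 CPM in wild type and 20.3 and 21.6 in knockdown at 24 h. It stood at 44.0, 42.3 and 45.3 against 30.02, 31.2 and 35.4 at 48 h, and at 26.4, 29.6 and 27.3 against 21.8, 19.0 and 19.0 at 96 h. No knockdown library reached the wild-type level of its time. It fell by 0.50, 0.44 and 0.48 on the log2 scale (adjusted p = 0.00175, 0.000257 and 0.000494), and the 24 h call was missed with total-count scaling (adjusted p = 0.0519). RAD51C, a paralog present in both paralog complexes, changed by -0.37, -0.28 and -0.40 (adjusted p = 0.00891, 0.00601 and 0.00125). TOPBP1, which activates ATR, changed by -0.39, -0.26 and -0.49 (adjusted p = 0.0236, 0.0364 and 0.0013). The 24 h and 48 h calls of these last 2 genes were lost with each of the 3 other scalings tried (adjusted p up to 0.268 and 0.124 for RAD51C, and 0.302 and 0.277 for TOPBP1), and their 96 h calls held under each of the 24 settings. At 24 h both were also lost without wild-type replicate 2 or either knockdown library of that time, and TOPBP1 without wild-type 48 h replicate 2 (adjusted p = 0.0672). The 48 h call of TOPBP1 was lost without wild-type replicate 1 or 3 or knockdown replicate 1 or 2 of that time (adjusted p from 0.0712 to 0.166).

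**Figure D3:**
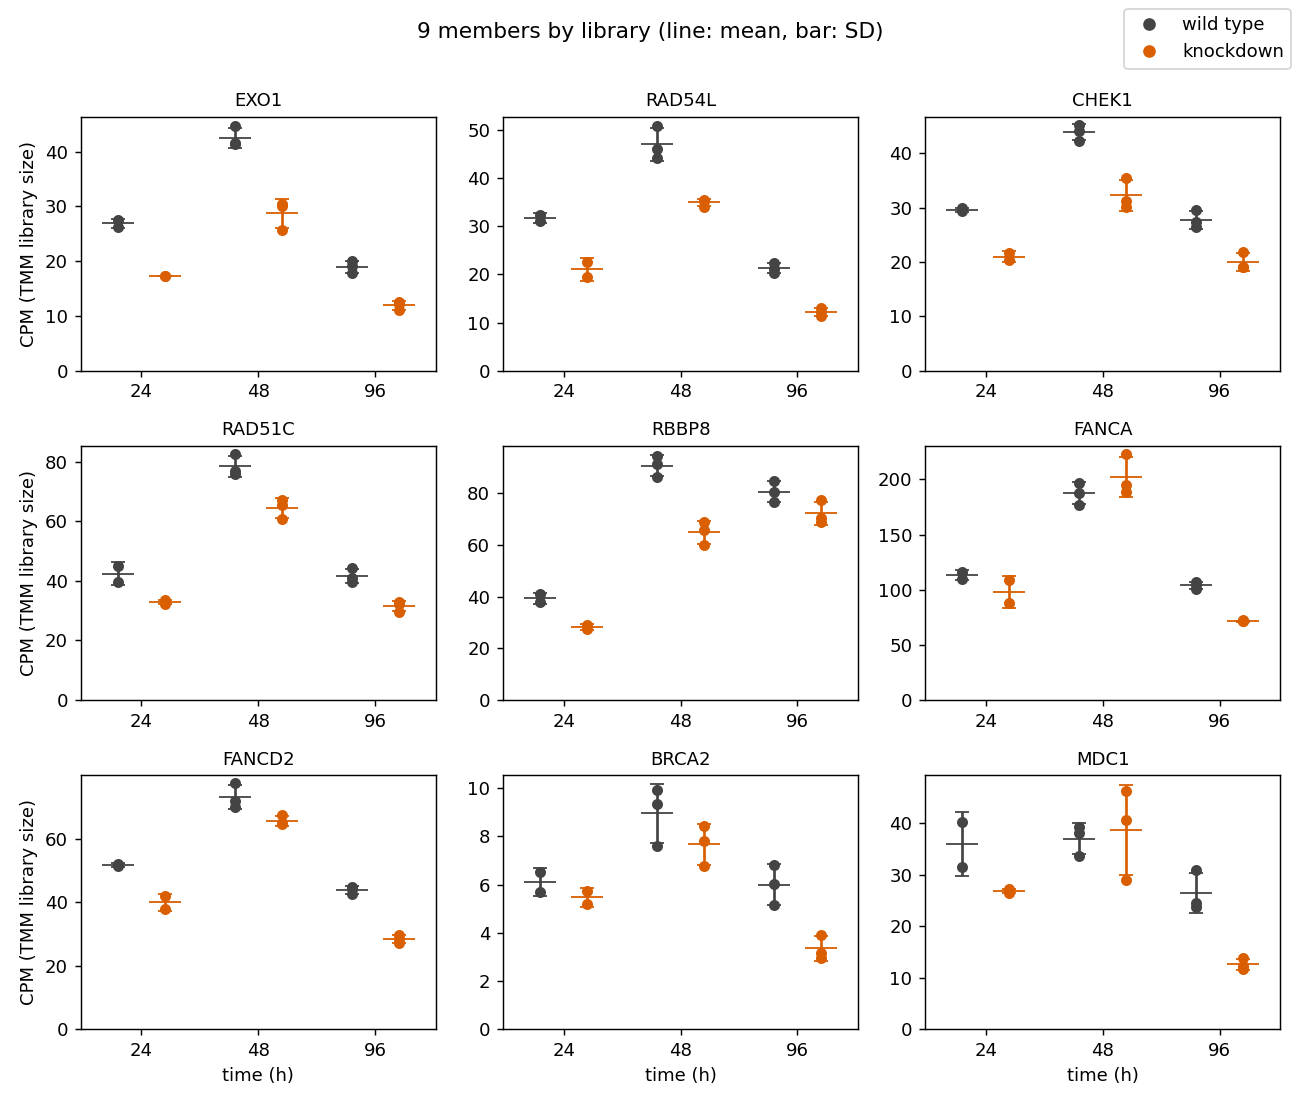
CPM with TMM-scaled library sizes of 9 of the genes in each library, wild type in grey and knockdown in orange, at 24, 48 and 96 h; the line is the group mean and the bar the SD (n = 2 at 24 h, n = 3 otherwise). EXO1, RAD54L and CHEK1 are apart at each time, while FANCA and MDC1 overlap at 48 h and are apart at 96 h.

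Among the mediators, BRCA2, which loads the recombinase, passed only at 96 h. It was at 5.13, 6.82 and 6.03 CPM in wild type and 3.91, 3.18 and 2.95 in knockdown, without overlap. Its fold change was -0.84 ± 0.15 (adjusted p = 0.000578), beside -0.16 at 24 h and -0.23 at 48 h, and the difference between times did not pass. PALB2, the bridge between BRCA1 and BRCA2, fell at 48 h (-0.51, adjusted p = 0.00121) and gave -0.32 and -0.27 at 24 h and 96 h. BRCA1 (-0.30, -0.27 and -0.46) and its partner BARD1 (-0.16, -0.07 and -0.30) were lower on average and passed at no time, and BRCA1 varied widely, from 8.47 to 14.7 CPM among the 96 h knockdown libraries. RAD52, an annealing protein, showed 0.08, -0.12 and -0.02.

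Of the 5 paralogs, 2 fell at 24 h, 3 at 48 h and 3 at 96 h (background 12.4%, 18.5% and 5.15%). RAD51B had the largest changes, -0.69 at 48 h (adjusted p = 0.0024) and -0.64 at 96 h (adjusted p = 0.0104), at levels of 2.18 to 4.40 CPM at those times. Both calls were lost with protein-coding transcripts only (adjusted p = 0.111 and 0.133), and the 96 h call also without knockdown 96 h replicate 2. XRCC2 fell at 24 h (-0.44) and 96 h (-0.38), and XRCC3 at 48 h (-0.29). The XRCC2 calls held in 17 and 20 of 24 settings, and that of XRCC3 in 19. Most XRCC2 counts lay on XRCC2-202, a processed transcript not marked as protein-coding. Its mean share was 60.6% in wild type and 59.3% in knockdown at 24 h, and 65.0% and 57.9% at 96 h. Both XRCC2 calls were lost with protein-coding transcripts only. RAD51D, with -0.28, -0.07 and -0.31, did not pass. XRCC3 shares 76.7% of its exonic bases with KLC1 on the opposite strand, so its counts are uncertain. The other 2 genes acting with the recombinase filament, RAD54B (-0.40, -0.32 and -0.42) and RAD51AP1 (-0.33, 0.13 and -0.46), both fell at 96 h, RAD54B also at 48 h. The 48 h call of RAD54B held in 17 of 24 settings. RAD54B shares 59.1% of its exonic bases with FSBP on the same strand.

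In the Fanconi core 3 of 9 genes fell at 24 h (FANCG, FANCM, UBE2T), none at 48 h and 5 at 96 h (FANCA, FANCC, FANCG, FANCM, UBE2T). Of all tested genes 12.4%, 18.5% and 5.15% fell at these times. The 24 h calls of FANCG, FANCM and UBE2T held in 13, 16 and 16 of 24 settings. All of these were lost with total-count and with upper-quartile scaling. At 48 h the 9 genes lay between -0.29 (FANCF) and 0.16 (FANCL). FANCA was at 188, 197 and 177 CPM in wild type and 223, 195 and 189 in knockdown at 48 h, but at 104, 101 and 107 against 71.3, 72.1 and 71.2 at 96 h. The groups overlapped at the first of these times and not at the second. The 96 h change was -0.54 ± 0.08 (adjusted p = 0.000115). On the opposite strand, ZNF276 covers 23.6% of the exonic bases of FANCA, and the strand setting of the counting is not given. FANCG changed by -0.32, -0.10 and -0.52, FANCM, a fork remodelling translocase, by -0.51, -0.19 and -0.43, and UBE2T by -0.35, -0.19 and -0.39. FANCE, FANCF, FANCB and FANCL, the ubiquitin ligase subunit, passed at no time, and FANCB had a fold change of -0.60 at 96 h (adjusted p = 0.0627) at 1.10 to 1.99 CPM.

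FANCD2 and FANCI each fell at 24 h and 96 h. FANCD2 was at 51.2 and 52.0 CPM in wild type against 37.98 and 41.9 in knockdown at 24 h. At 96 h the values were 42.5, 44.0 and 44.8 against 29.8, 28.4 and 27.3. All knockdown libraries were below wild type at both times, and also at 48 h (69.9, 71.8 and 77.4 against 67.5, 64.8 and 64.4), where the change of -0.16 did not pass. The changes were -0.37 ± 0.09 (adjusted p = 0.0041) and -0.62 ± 0.07 (adjusted p = 5.01e-06), the first lost without knockdown 24 h replicate 1, with each of the 3 other scalings and with protein-coding transcripts only (adjusted p up to 0.279). With total-count scaling the 48 h groups overlapped. FANCI gave -0.44, -0.17 and -0.56, and the helicase BRIP1 fell at 96 h (-0.60), with -0.13 and -0.14 before.

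Of the resection genes, EXO1 fell at each time, as given above, while the others passed at some times or at none. Passing at some times and not at others does not by itself show a difference between them. RBBP8 was at 29.1 and 27.5 CPM in knockdown at 24 h, and at 60.1, 65.7 and 68.8 at 48 h, below every wild-type library of those times given above. At 96 h knockdown was at 77.4, 70.3 and 68.9, and the highest of these overlapped wild type. The changes were -0.48 ± 0.09 (adjusted p = 0.00127), -0.48 ± 0.07 (adjusted p = 4.16e-05) and -0.16 ± 0.07 (adjusted p = 0.204), and the first was lost without knockdown 24 h replicate 2 (adjusted p = 0.0615). RAD50, the structural arm of the MRE11 complex, was at 39.9 and 44.5 CPM against 24.5 and 26.1 at 24 h, a fall of 0.74 on the log2 scale (adjusted p = 0.0346). That call was lost without any 1 of the 4 libraries of 24 h, and 79.7% of the exonic bases of RAD50 are shared with AC116366.3 on the same strand. NBN fell at 48 h (-0.34, adjusted p = 0.0443), a call that held in 8 of 24 settings. MRE11 (-0.08, -0.11 and -0.28) did not pass.

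In checkpoint signalling, the apical kinases did not fall and some of the genes around them did. ATM was the 1 gene of the 38 that rose, at 48 h, from 16.1, 15.8 and 18.4 CPM to 24.7, 20.2 and 18.4. The lowest knockdown library overlapped the highest wild-type one, and knockdown replicate 1 was highest. The change was 0.33 ± 0.10 (adjusted p = 0.0163), and it did not pass without that library (adjusted p = 0.135), nor without wild-type 48 h replicate 1 or 2 (adjusted p = 0.066 and 0.0682). ATR (-0.08, -0.24 and 0.08) passed at no time. Its partner ATRIP fell at 24 h (-0.42) and 48 h (-0.56, adjusted p = 0.000298) and gave -0.30 at 96 h. The 24 h call of ATRIP held in 15 of 24 settings and the 48 h call in all 24. TREX1 shares 27.9% of the exonic bases of ATRIP on the same strand. CHEK2 (-0.48, -0.25 and -0.29) and TP53BP1 (0.13, 0.06 and -0.09) did not pass.

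MDC1 (ENSG00000137337, chromosome 6, 30699807 to 30717889, minus strand of GRCh38), the adaptor that binds the histone mark at breaks, had the largest fall of all. At 96 h it was at 23.9, 24.6 and 30.9 CPM in wild type and at 13.8, 11.7 and 12.4 in knockdown. At 48 h it was at 39.3, 38.2 and 33.7 against 40.7, 29.1 and 46.4. The groups were apart at 96 h, and at 24 h (31.6 and 40.3 against 27.2 and 26.6; not with total-count scaling), while at 48 h knockdown spread over both sides of wild type. The 96 h change was -1.06 ± 0.15 (adjusted p = 0.000306), beside -0.42 at 24 h (adjusted p = 0.145) and 0.06 at 48 h.

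Whether the effect itself differed between the times was tested in the same model. A difference among the 3 times passed for 3 of 38 genes, FANCA (adjusted p = 0.003), MDC1 (adjusted p = 0.0102) and FANCD2 (adjusted p = 0.0115), against 9.44% of all genes, so the share of 3 in 38 was near the background. Only FANCA held in every setting, MDC1 and FANCD2 missing with protein-coding transcripts only (adjusted p = 0.0648 and 0.0527). The count went to 9 without knockdown 48 h replicate 3 and to 7 without knockdown 48 h replicate 2. From 48 h to 96 h the effect became more negative in 7 genes (4.2% of all genes) and less negative in 1 (6.74% of all genes moved upward). The 7 were FANCA, MDC1, FANCD2, FANCG, FANCI, RAD51AP1 and RAD54L, and the 1 was RBBP8. Between 24 h and 48 h no gene of the 38 passed by edgeR (1.77% of all genes did). At an unadjusted p under 0.05 there were 4, FANCA, FANCI and RAD51AP1 toward a less negative and RAD51B toward a more negative effect. No result of another tool was collected for this difference.

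Genes around these were compared by their own lists. Of all tested genes 12.4%, 18.5% and 5.15% fell at the 3 times and 5.14%, 14.8% and 5.35% rose. Of 66 other repair and checkpoint genes, 17 fell at 24 h, 24 at 48 h and 23 at 96 h, and 0, 7 and 2 rose. USP1, which removes ubiquitin from FANCD2, changed by -0.63, -0.28 and -0.62, and POLQ, the polymerase of microhomology-mediated joining, by -0.73 at 96 h. CENPX, a DNA-binding partner of FANCM, fell at 24 h and 48 h (-0.60 and -0.66), and CLSPN, the adaptor between ATR and CHEK1, at 24 h (-0.54). Of 13 end joining genes, which act without a sister copy, 4, 4 and 1 fell and 1, 3 and 2 rose. XRCC6, a subunit of the Ku end-binding protein, fell at all 3 times (-0.52, -0.36 and -0.42).

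Markers of cycling cells moved with the repair genes. Of 27 S phase genes 23, 22 and 24 fell at the 3 times, and of 20 G2/M genes 19, 11 and 20, with 1 rising at 48 h. Their median log2 fold changes were -0.47, -0.38 and -0.55 for S phase and -0.51, -0.25 and -0.85 for G2/M. In wild type all 27 and all 20 fell from 48 h to 96 h. The part of the share of cycling cells in the results for the 38 genes was not tested.

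**Figure D4:**
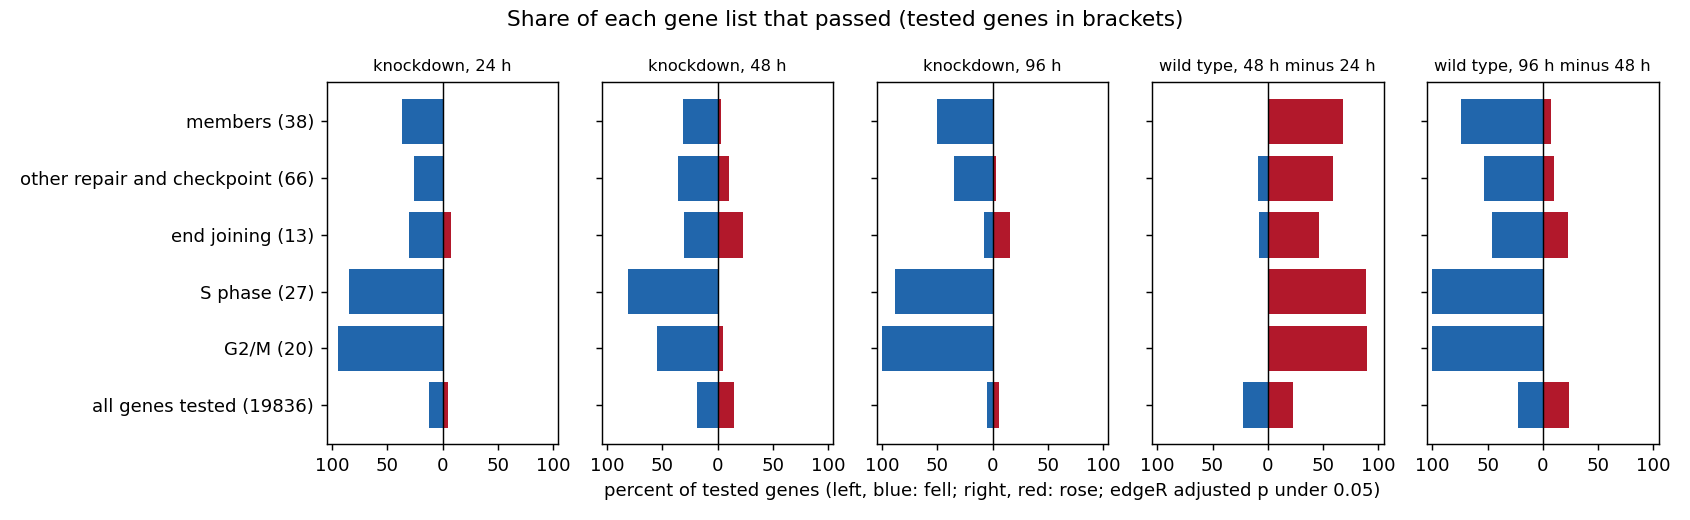
Percent of the tested genes of each list that fell (left, blue) or rose (right, red) in the 3 knockdown comparisons and in the 2 wild-type time steps (edgeR adjusted p under 0.05); the number of tested genes is in brackets. The 38 repair genes lie between all genes and the S phase and G2/M lists in each knockdown panel for falls, and the wild-type panels show a rise and then a fall.

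Genes with an E2F match in the promoter are set beside those without. At 24 h 4 of 6 with a match and 9 of 29 without one fell (medians -0.38 and -0.28), at 48 h 2 of 6 and 8 of 29 (medians -0.22 and -0.19), and at 96 h 6 of 6 and 11 of 29 (medians -0.52 and -0.30). In wild type from 24 h to 48 h, 5 of 6 and 18 of 29 rose, with medians of 0.49 and 0.55. XRCC2, among the 6 with a match, lost its 96 h call and its wild-type rise with protein-coding transcripts only. For the CHR element, 1, 0 and 4 of 5 genes with it fell at the 3 times and 12, 10 and 13 of 30 without it. For the Pumilio motif, 2, 3 and 4 of 9 genes with it fell at the 3 times and 11, 8 and 14 of 28 without it. Of all tested genes 12.4%, 18.5% and 5.15% fell. These counts carry no test.

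Transcript usage, the share of a gene's counts on each of its transcripts, was compared because the study asked about splicing. By edgeR's diffSpliceDGE, 6 of 36 genes passed for the mean of 48 h and 96 h (FANCD2, FANCC, FANCI, BRCA2, RAD51B, CHEK2; background 3.64%) and 3 of 36 at 24 h (FANCA, RAD54L, ATM; background 1.63%). On simulated counts that test also called many unchanged genes. A limma test on log ratios, which did not, passed 0 of 30 at both (background 0.273% and 0.526%), and 3 of the 30 had an unadjusted p under 0.05 in each comparison. FANCD2-204, a transcript marked for nonsense-mediated decay, took 29.5%, 17.9% and 18.2% of FANCD2 counts in wild type at 96 h and 27.8%, 28.0% and 35.3% in knockdown, and these ranges overlapped. CHEK2-201 took 57.6%, 46.0% and 53.4% of CHEK2 counts in wild type at 48 h and 8.66%, 19.9% and 44.4% in knockdown, the last being replicate 3. For ATM-201 the shares ran from 4.04% to 67.0% within the 48 h wild-type group alone, so that the assignment of reads between transcripts varied widely between replicates.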

How the data were processed

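Messenger RNA was measured by strand-specific sequencing of polyadenylated RNA in 16 libraries, grouped by sample title. The authors deposited 1 table of estimated counts per transcript, made with kallisto, with DESeq2 and the build hg19 also named, all per the submitters' processing notes. For versions, index, strand setting and filters the sources used here give nothing. Of 166096 transcripts, 9513 (2.75% to 3.40% of a library's counts) had no match in GENCODE 29 (GRCh38) and were left out, and the rest were summed to 31495 genes and rounded. TPM were computed here from the counts and annotated transcript lengths, over all transcripts matched.

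edgeR 4.0.16 (R 4.3.3) with filterByExpr, TMM scaling and 1 mean per group (10 residual degrees of freedom) gave the tests, by glmQLFit (robust) and glmQLFTest, adjusted by Benjamini-Hochberg over 19836 genes at 0.05. CPM use TMM-scaled library sizes. Transcript usage was tested with diffSpliceDGE and with limma 3.58.1 on the log ratio of a transcript to its gene's other transcripts. Each test was tried on simulated counts first. Libraries of a group differed by far more than sampling noise, with chi-square over degrees of freedom of 7.84 or more, so none was merged.

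The 38 genes were listed by function, and that list, the other gene lists and the tests were chosen with earlier results of these data known. All 38 genes were named. Values in every library were given for genes with the 3 lowest p among calls in each direction of a knockdown comparison. BRCA2, FANCA, MDC1 and RAD50 were also given in every library, after their values were seen. Levels of the genes highest or lowest in level were given as group means. Of other repair and end joining genes, up to 5 calls with the lowest p per comparison could be named.

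Alternatives were scaling by abundance-dependent offsets, upper quartiles or total counts, DESeq2 1.42.0, no filter on low counts, protein-coding transcripts only, only the 2 groups compared, the replicate number as a block, and leaving out each library. Total-count scaling of the summed level and of the overlap counts was added after seeing the data. Same-numbered libraries did not deviate together (correlations -0.25 to 0.06), so the numbers were not used as pairs.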

Additional observations from a re-analysis of the deposited data

Results flagged for a closer look

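The effect of the knockdown differed between the 3 times for FANCA (adjusted p = 0.003), MDC1 (adjusted p = 0.01015) and FANCD2 (adjusted p = 0.01151), by the test of that difference. From 48 h to 96 h it became more negative for FANCA by 0.65 on the log2 scale (adjusted p = 0.001014), MDC1 (adjusted p = 0.003628), FANCD2 (adjusted p = 0.003923), FANCG (adjusted p = 0.02451), FANCI (adjusted p = 0.0265), RAD51AP1 (adjusted p = 0.02653) and RAD54L (adjusted p = 0.04339). The change was -1.13 for MDC1, -0.47 for FANCD2, -0.42 for FANCG, -0.39 for FANCI, -0.59 for RAD51AP1 and -0.37 for RAD54L. For RBBP8 it went the other way, by 0.33 (adjusted p = 0.04846). These comparisons share the 48 h libraries, among them knockdown replicate 3. For the difference from 48 h to 96 h, the result of the fit without that library was not collected.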

How the results depend on the processing

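Of 38 genes, the 14 calls at 24 h became 5 with total-count scaling, 7 with upper-quartile scaling, 8 with abundance-dependent scaling and 7 with no filter on low counts, and 5 to 16 when 1 library was left out. The 13 calls at 48 h became 8 with protein-coding transcripts only and 8 to 17 with 1 library left out. At 96 h the 19 calls stayed between 15 and 21, and the wild-type counts of 26 and 31 between 22 and 28 and between 29 and 32. The 3 calls of a difference between times became 10 with total-count, 9 with upper-quartile and 8 with abundance-dependent scaling, 9 with DESeq2, and 3 to 9 with 1 library left out. Transcript usage calls at 48 h and 96 h went from 6 to 0 with limma, 0 with transcripts of at least 10% of their gene, 2 with the replicate block and 1 to 6 with 1 library left out, and those at 24 h from 3 to 0 with limma and 1 to 4 with 1 library left out. Where leaving out a 24 h library left 1 in its group, that library is assumed to vary like the other groups. The replicate block gave 13, 12 and 19 calls at the 3 times, 26 and 31 in wild type and 3 for the difference between times; 1 of 12 libraries at 48 h and 96 h correlated best with its own number in the other group. XRCC2 from 24 h to 48 h in wild type turned from 0.43 to -0.18 (adjusted p = 0.694) with protein-coding transcripts only. Chosen after seeing the data, total-count scaling of the summed level gave 94.2% of wild type in place of 81.4% at 24 h and 98% in place of 89% at 48 h. It gave 14 in place of 26 genes with knockdown wholly below wild type at 24 h, and at 48 h 10 in place of 17 below and 5 in place of 0 above. The causes were not tested. Calls that held in every setting numbered 2 at 24 h (EXO1 and RAD54L), 6 at 48 h and 14 at 96 h. Genes at a few CPM, such as FANCB, have SE of 0.18 to 0.24 on the log2 scale, so smaller differences could not be resolved at this depth.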
